A study of Glycyrrhiza uralensis with 30 samples.

Results

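The genes described here are 215 of the 34445 genes listed for *Glycyrrhiza uralensis*, a licorice. These stood higher in roots after 2, 12 and 24 h in a polyethylene glycol medium, while differing little in shoots at 2 and 24 h. They were chosen on the measured values. L is the mean of log2(TPM + 1) over the 3 libraries of a group, where TPM is a transcript abundance per length, scaled to a fixed total within each library. A member had L at least 1 above the root control at 2 h, at 12 h and at 24 h, an absolute shoot difference under 1 at 2 h and at 24 h, and a mean of at least 5 TPM in its highest group. The rule allows up to 300 genes, and 215 met it. Because these values chose the members, the differences at 2, 12 and 24 h are a description and carry no test. The libraries of 6 h and the shoot libraries of 12 h entered the rule for the level limit alone, which 1 member met only through them.

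The seedlings are labelled as 60 days old, while the protocol gives 1 week of hydroponic growth, and how these fit together is not stated. They were moved to MS nutrient solution with polyethylene glycol 6000 (PEG 6000) at 100 g/L. Shoots (stems and leaves) and roots sampled at 2, 6, 12 and 24 h and their controls make 10 groups of 3 libraries, 30 in all. The control of each part is the 0 h sample, whose treatment label reads distilled water, and no controls of the later times are listed, so PEG, medium and elapsed time cannot be told apart in a comparison with control. Each number in the sample titles is carried by a root and a shoot library, and the labels do not tell whether separate plants gave the 3 libraries of a group, so a p-value sets a difference against a spread among libraries that may be technical. The files give TPM to 2 decimals and no read numbers, so the depth is unknown, and they do not pair identifiers with gene names. The labelled tissues were therefore not checked against marker genes, and the members' functions are not given.

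PEG 6000 is a large polymer used to mimic drought: it holds water in the medium, and roots take it up with more difficulty. In plants in general, root cells answer a falling water potential with abscisic acid synthesis, with sugars, amino acids and other solutes that lower the cell's own osmotic potential, with protective proteins such as dehydrins, and with changes in water channels and in wall barriers. Roots are in direct contact with the medium, whereas leaves meet the change through the water column and through signals from the root.

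Libraries differed in ways that touch the values here. The median log2(TPM + 1) of 1057 shoot-biased genes, set as at least 3 higher on that scale in the mean of the 15 shoot libraries with the members left out, was 1.77 in root library 3 of 2 h and 1.59 in root library 6 of 6 h, and 0.77 to 1.24 in the other 13 root libraries. Of the converse group of 535 root-biased genes, the median ranged from 0.46 to 2.17 among the 15 shoot libraries. No library was identical to another. In bulk tissue, more cells of a type and more RNA per cell cannot be told apart.

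In control roots the members were mostly low. Their median level was 4.67 TPM, with quartiles of 1.27 and 12.6 TPM, 42 of them were under 1 TPM and 26 were listed at 0 in at least 1 control library. The root median was 24.3, 13.2, 21.1 and 26.2 TPM for the 2, 6, 12 and 24 h groups in turn. At 2, 12 and 24 h no member had a root mean under 1 TPM, which the rule ensures, and 41, 36 and 51 members reached 100 TPM there, against 7 in control and 19 at 6 h. In shoots the median stayed between 4.02 TPM at 6 h and 6.44 TPM at 12 h, with 4.88 TPM in control.

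**Figure D1:**
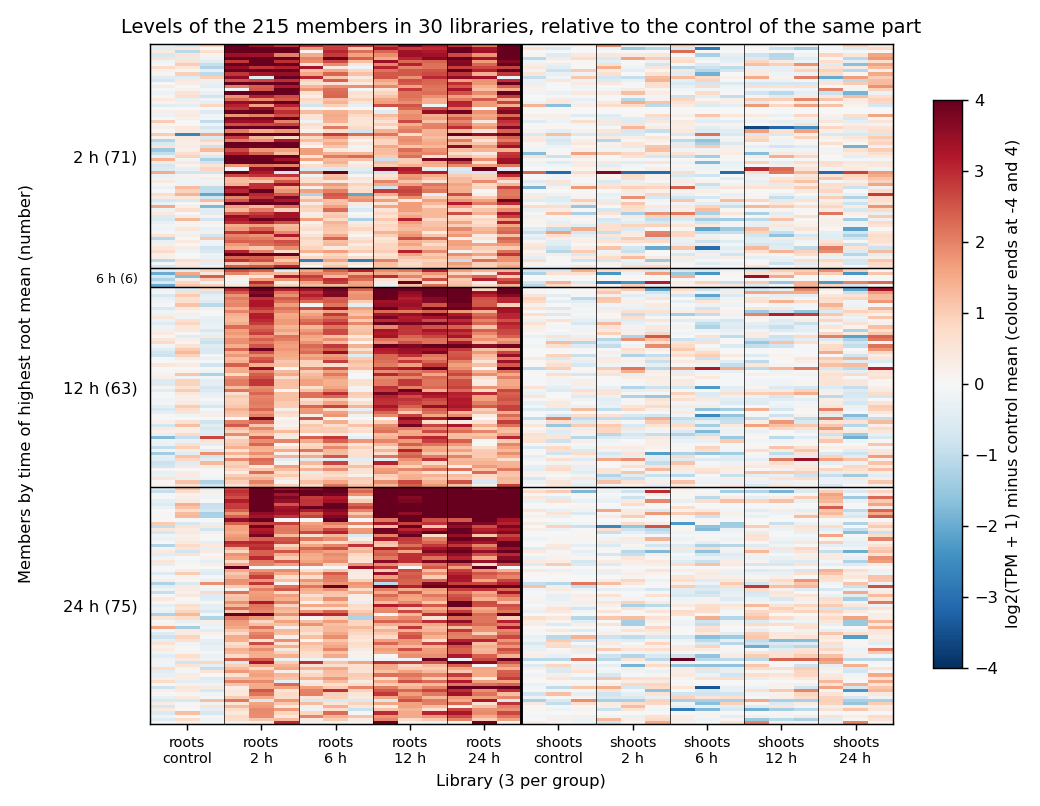
Each row is 1 of the 215 members and each column 1 of the 30 libraries; colour gives log2(TPM + 1) minus the mean of the control libraries of the same part. Rows are grouped by the time of the highest root mean, and the root columns of 6 h are paler than those of 2, 12 and 24 h for most rows. In shoots the median difference over members lies between -0.07 and 0.33 at each time, while single members range from -3.10 to 2.63 at 12 h.

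The members' share of all listed TPM was 0.347%, 0.445% and 0.315% in root control libraries 31, 32 and 33. The 2 h libraries 1, 2 and 3 had 2.60%, 2.80% and 3.01%. For the 6 h libraries 4, 5 and 6 the share came to 0.791%, 1.10% and 0.624%. The 6 h libraries thus lay above the controls and far under those of 2 h. Libraries 7, 8 and 9, taken at 12 h, had 1.37%, 1.58% and 1.65%, whereas libraries 10, 11 and 12, taken at 24 h, had 2.63%, 1.33% and 2.60%. All 12 treated root libraries were above all 3 controls, by the choice of the members for 9 of them. A few abundant genes weigh on this share: the 10 most abundant members held 54.1% of the members' summed TPM at 2 h and 36.2% at 24 h, against 46.2% in control.

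Averaged over members, where each gene counts alike, log2(TPM + 1) in control roots was 2.55 ± 0.25, and the 2, 6, 12 and 24 h roots had 4.73 ± 0.35, 3.80 ± 0.50, 4.70 ± 0.20 and 4.90 ± 0.47 (SD, n = 3 each). Control shoots had 2.72 ± 0.02, and the treated shoots, in the same order, 2.80 ± 0.07, 2.59 ± 0.17, 2.85 ± 0.11 and 3.01 ± 0.44 (SD, n = 3 each). The control libraries of roots and shoots overlapped in this mean, and at each later time every root library stood above every shoot library.

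**Figure D2:**
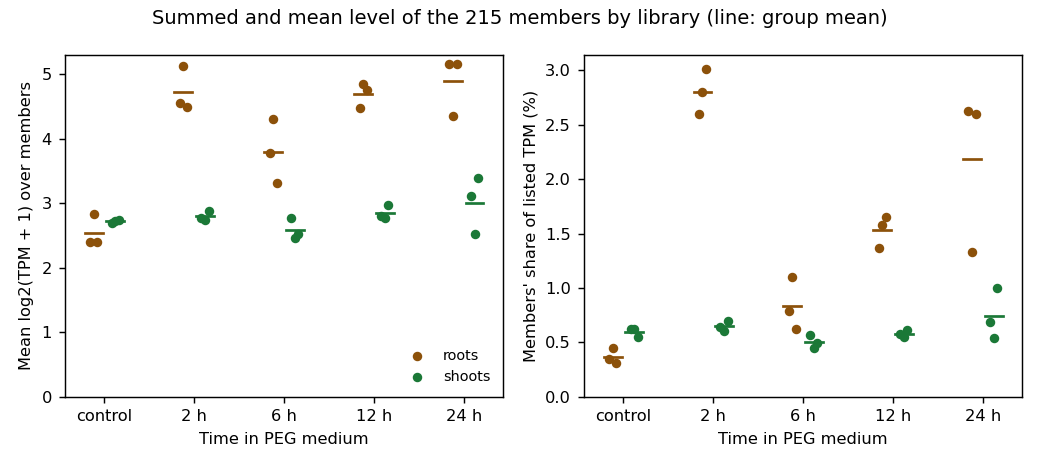
Points are single libraries and lines group means, for the mean log2(TPM + 1) over the 215 members (left) and their share of the listed TPM in percent (right). Root libraries of 6 h lie between control and the other times, from 3.31 to 4.31 in the mean, and shoot libraries span 2.46 to 3.39.

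At the times that chose them, the members' median root difference from control on the log2(TPM + 1) scale, which understates the change of low genes, was 1.88, 1.97 and 2.12 for the 2, 12 and 24 h groups. The same over the 23107 genes tested in roots was -0.12, 0.02 and 0.03. At 2 h the members ran from 1.00 to 7.11, at 12 h from 1.00 to 5.69 and at 24 h from 1.02 to 6.86. Differences of at least 2 at all 3 times were found in 42 members, and of at least 3 in 10. The limit fell in a dense range: the smallest of the 3 differences was 1.002 in the member just inside and 0.9996 in the gene just outside, with 30 members within 0.1 above the limit and 67 otherwise fitting genes within 0.1 under it. On the shoot side the values just inside and outside were 0.9977 and 1.0006, and for the highest group mean 5.23 and 4.76 TPM. A total of 443 genes met the root and level limits, and 228 of these were left out for a shoot difference of at least 1, of which 89 were higher in shoots at both 2 and 24 h, 106 were higher at 1 of these times, and 33 were lower at either.

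To describe how the differences that chose the members compare with the replicate spread, calls were made with limma, a linear model that shares the estimate of the spread across genes, at a Benjamini-Hochberg adjusted p under 0.05 over all genes tested. At 2 h, 129 of the 215 were called higher in roots, where 6.01% of all tested genes were. At 12 h, 89 members were called and 1.36% of all genes. At 24 h, 136 members were called and 4.49% of all genes. The rule used these 3 contrasts, so high counts follow from the choice and nothing is read from them. At all 3 times 73 members were called, beside 0.736% of tested genes, 44 were called at 2 of the times, 47 at 1 and 51 at none. The 12 h count was 49 without library 9 of 12 h, 54 without library 8, and 58 without control library 31 or 33. In the same order, 0.909%, 0.815%, 0.985% and 1.35% of all tested genes were called in either direction, against 2.32% in the full fit. In 135 members every library of 2, 12 and 24 h was above the highest control library, a condition met by 3.44% of tested genes.

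Membership also depended on single libraries. The rule was met by 59 of the 215 members whichever of the 21 libraries it uses was left out. Control library 32 had the highest value of the 3 controls in 127 members (59.1%, against 30.8% of all tested genes). Without it, 321 genes met the rule, 202 of the 215 members among them. Fewer members stayed without some other libraries. The lowest number was 169, without root control library 33, followed by 176 without root control library 31 or shoot library 11 of 24 h.

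Members differed in the time of their highest root mean: 71 peaked at 2 h and 75 at 24 h, with 63 at 12 h and only 6 at 6 h. The genes that peaked at 2 h were the most abundant in control, with a median of 8.71 TPM, and had medians of 66.7, 18.7, 28.5 and 39.3 TPM in the 2, 6, 12 and 24 h roots. Their median differences on the log2(TPM + 1) scale were 2.81, 0.86, 1.46 and 1.78, so after the early maximum the median was lowest at 6 h. Those that peaked at 12 h had a median of 4.18 TPM in control and 13.4, 13.6, 23.3 and 17.6 TPM at 2, 6, 12 and 24 h. Those that peaked at 24 h had a median of 2.15 TPM in control and 11.3, 9.23, 15.2 and 21.4 TPM at these times. Both later groups had similar median differences at 2 h, 1.58 and 1.55, and at 6 h, 1.28 and 1.26.

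**Figure D3:**
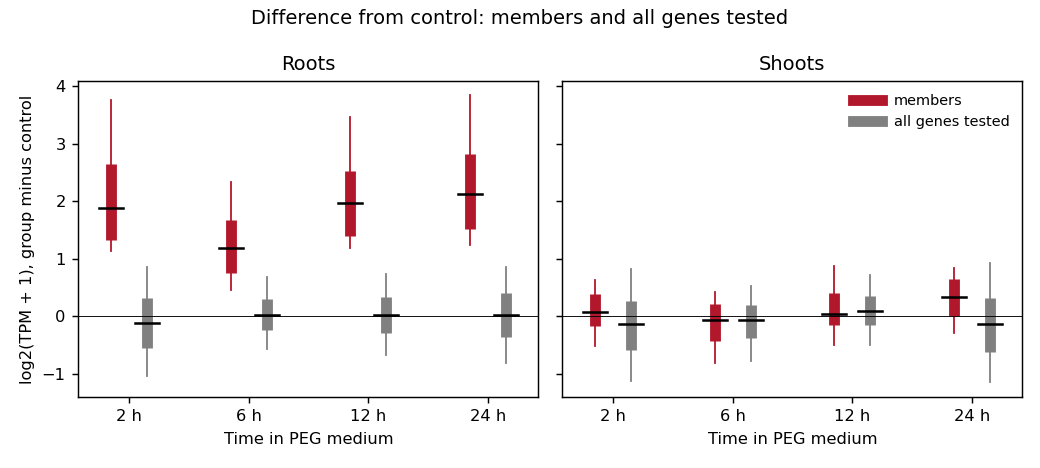
Medians (black), quartiles (bars) and the range from the 10th to the 90th percentile (lines) of the log2(TPM + 1) difference from control, for the members and for all genes tested, in roots (left) and shoots (right). The root medians of the members are 1.88, 1.19, 1.97 and 2.12 at 2, 6, 12 and 24 h, and the shoot medians lie between -0.07 and 0.33.

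Roots at 6 h were not part of the rule, but their comparison with control shares the control libraries that chose the members, so its calls, too, are a description and support nothing. The median difference was 1.19, with quartiles of 0.75 and 1.67, beside 0.03 over all tested genes. It was at least 1 in 127 of the 215 members (59.1%, against 5.18% of tested genes) and at or under 0 in 11. In 150 members the 6 h level lay above control and under each of 2, 12 and 24 h, and 166 were lower at 6 h than at both 2 and 12 h. The rule sets a lower limit at the other 3 times and none at 6 h, which favours this order. In 120 members all 3 libraries of 6 h exceeded the highest control library, against 10.2% of tested genes, and in 100 members all 12 treated root libraries did so, against 2.09%. limma called 2 members higher at 6 h, where it called 0.0909% of all tested genes higher. An unadjusted limma p under 0.05, in either direction, was found in 118 members and 9.98% of tested genes. The count of 2 was 0 without library 4 or 5 of 6 h, 7 without library 6, and 1 without control library 31 or 33. In the same order, 0.0522%, 0.0697%, 0.161%, 0.0653% and 0.153% of all tested genes were called in either direction, against 0.182% in the full fit.

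The 3 root libraries of 6 h were far apart for these genes. Library 5 was the highest of the 3 in 158 members (73.5%, against 44.5% of all tested genes) and library 6 the lowest in 144 (67.0%, against 23.5%). Library 6 was also the one with more RNA of shoot-biased genes, with a median log2(TPM + 1) of 1.59 for that group against 1.04 in library 4 and 1.12 in library 5; the part of this in the members' levels was not tested. A like spread was seen at 24 h, where library 11 was the lowest of the 3 in 156 members (72.6%, against 21.6% of tested genes).

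Neither group of the comparison of roots with shoots at 6 h entered the limits on differences. The choice still favours a higher root level there, since members stood higher in roots at the other times and 214 of the 215 reached the level limit in a root group, so the counts are a description beside those of all genes. Of the 215 members, 100 (46.5%) were called higher in roots by limma over all 30 libraries, against 23.4% of the 25420 genes tested, and 15 (6.98%) were called lower, against 15.8%. The median difference was 1.19 over members and 0.19 over all tested genes. Among the 100, the differences ran from 1.08 to 6.69 with a median of 2.51, and their median level was 16.7 TPM in roots and 0.950 TPM in shoots. Among the 15, they ran from -1.17 to -4.96 with a median of -2.17, at a median of 16.3 TPM in roots and 73.6 TPM in shoots. The standard error of a member's difference had a median of 0.52. In 112 members every root library of 6 h exceeded every shoot library, against 33.6% of tested genes, and in 20 members the reverse held, against 20.5%. Median-ratio scaling, which brings the median of all tested genes to 0, left 97 members called higher and 19 lower, with a median over members of 1.00.

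**Figure D4:**
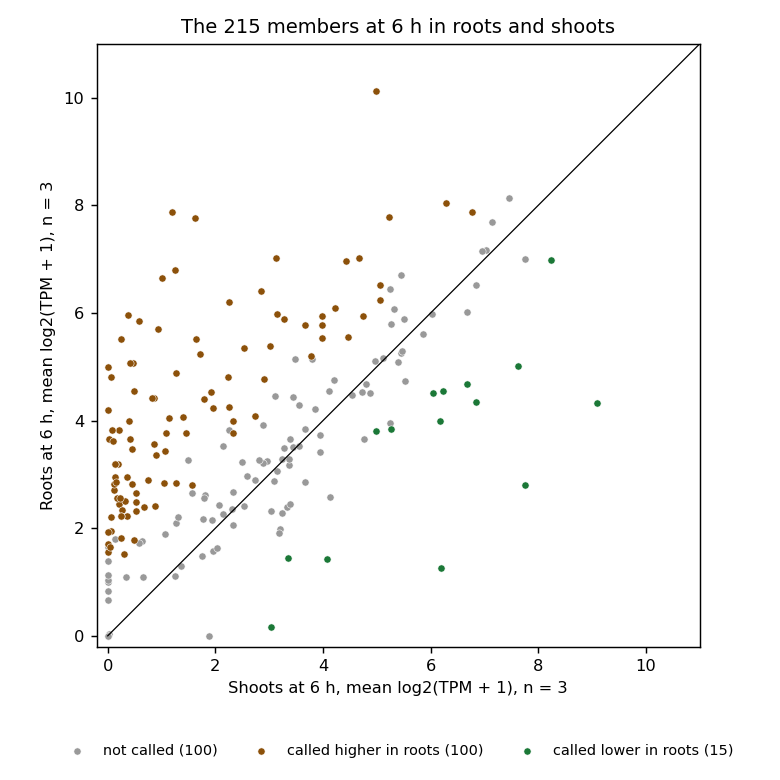
Each point is 1 of the 215 members, by its mean log2(TPM + 1) in shoots (horizontal) and roots (vertical) at 6 h, n = 3 each; the line marks equal levels. The 100 members called higher in roots lie above the line, many near 0 on the shoot axis, and the 15 called lower lie under it at shoot values of about 3 or more.

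The members fall into unlike kinds by their shoot level, a split that includes the 6 h shoots of the comparison. A low shoot level thus favours a call of higher in roots at 6 h and leaves little room for a call of lower. In 35 members the mean was under 1 TPM in all 5 shoot groups, so that they could reach the level limit only in roots. Of these, 29 (82.9%) were called higher in roots at 6 h, as were 74.0% of the 342 other genes past the level limit with such shoot levels. Another 42 were under 1 TPM in 1 to 4 shoot groups, and 29 of them (69.0%) were called higher, against 30.9% of the other genes of this kind. The other 138 were at 1 TPM or more in every shoot group, with a median of 12.8 TPM in control shoots and 7.09 TPM in control roots. Of these 138, 42 (30.4%) were called higher in roots at 6 h, against 25.4% of the other genes of this kind, and all 15 of the members called lower belonged to them (10.9%, against 19.9%). The 5 members listed at 0 in every shoot library included genes with scattered root values, such as one at 29.3, 0 and 0 TPM at 2 h and 0, 0 and 9.44 TPM at 6 h.

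Control levels split the members in another way, by a difference that itself favours the same direction at 6 h. In 65 members the control root level was at least 2-fold under that of control shoots on the log2(TPM + 1) scale. Of these, 2 (3.08%) were called higher in roots at 6 h, against 0.128% of the other genes past the level limit with this control difference. Another 15 (23.1%) were called lower, against 75.4% of those other genes. In 51 members control roots were at least 2-fold above control shoots, and 50 of these (98.0%) were called higher at 6 h, against 74.9% of the other genes of this kind. The remaining 99 were within 2-fold in control, and 48 of them (48.5%) were called higher at 6 h, against 19.8%. The controls in these splits are those of the rule, and no difference between these shares was tested. By group mean, 180 members had their highest level in a root group and 35 in a shoot group.

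Glyur011173s00047934 had the largest smallest difference of the members whose treated libraries all exceeded the controls. Its root level was 0, 2.36 and 0 TPM in control libraries 31, 32 and 33, and 8.83, 92.08 and 14.18 TPM in the 2 h libraries 1, 2 and 3. It was 16.96, 25.56 and 4.96 TPM at 6 h, and 28.43, 71.76 and 55.75 TPM at 12 h. At 24 h it was 107.50, 16.99 and 123.90 TPM. Every treated library was thus above the highest control, with one high library at 2 h and one low library, library 11, at 24 h. In the 15 shoot libraries it ranged from 0 to 0.44 TPM and was listed at 0 in most. The differences from control were 4.00, 3.24, 5.05 and 5.38 at 2, 6, 12 and 24 h, and no fold is given because 2 controls are listed at 0. The choice of this gene by its root rise favours a higher level in roots than in shoots. At 6 h the gene was higher in roots than in shoots by 3.74 (SE 0.71, limma adjusted p = 1.69e-04). Since its shoot values are near 0, this difference depends on the pseudocount and was 6.51 with a pseudocount of 0.1.

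Glyur000519s00019093 was the most abundant member over the 9 root libraries of 2, 12 and 24 h, at 1889.7 TPM on average, followed by a gene at 1428 TPM. In control roots it was already at 541.89, 818.38 and 489.56 TPM. It was at 1911.04, 3168.41 and 1541.75 TPM at 2 h, and at 999.64, 1269.47 and 1090.32 TPM at 6 h. All 6 of these libraries exceeded the highest control. The level was 1043.26, 1439.56 and 1498.09 TPM at 12 h and 2275.24, 1465.85 and 2664.23 TPM at 24 h. The group means were thus 3.58, 1.82, 2.15 and 3.46 times the control mean, from the earliest time to the latest. In shoots it ranged from 14.94 TPM, in library 11 of 24 h, to 196.32 TPM, in control library 33, with 74.59, 15.39 and 25.09 TPM at 6 h. The choice of this gene by its root level favours a higher level in roots than in shoots. Its control mean was already 617 TPM in roots and 93.1 TPM in shoots. At 6 h the gene was higher in roots than in shoots by 5.13 on the log2(TPM + 1) scale (SE 0.61, limma adjusted p = 3.49e-07). Its shoot levels of 12 h exceeded those of 6 h by 1.64 (SE 0.61), which did not pass the test (limma adjusted p = 0.137).

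**Figure D5:**
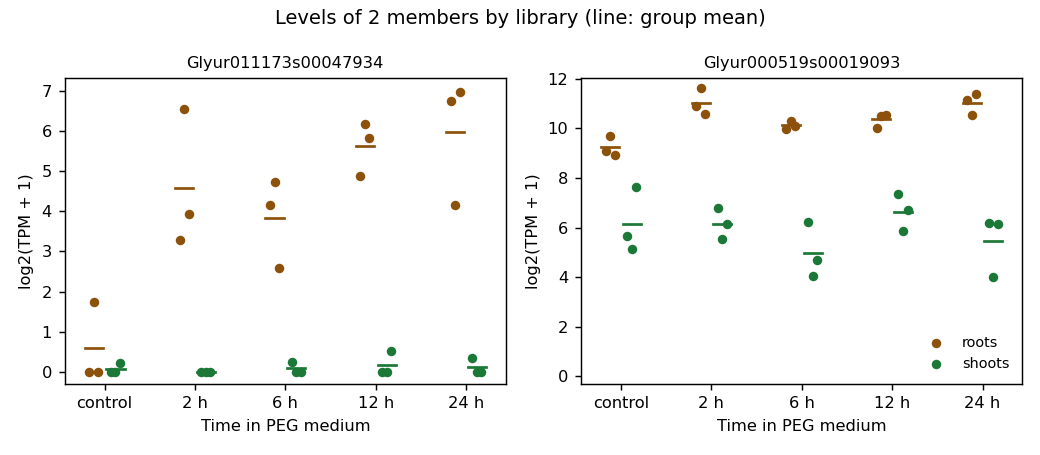
Points are single libraries and lines group means of log2(TPM + 1) for Glyur011173s00047934 (left) and Glyur000519s00019093 (right) in roots and shoots. The first is near 0 in every shoot library and in 2 of 3 root controls, and the second is above 8 in every root library, controls included.

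Some members lie next to each other in the numbering of the identifiers, which hold a first number and a serial number. What these stand for is not stated. Neighbours here share the first number and follow each other in serial number among the listed genes, so that serial numbers not listed are skipped. Of the 215 members, 12 (5.58%) were next to another member, in 6 pairs, whereas 1.01% of the other 20662 genes past the level limit were next to a member. The members spread over 193 first numbers, with at most 3 members under one of them. Whether the genes of a pair are near-identical copies was not tested. Copies would share reads, and the separate values within such a pair would then be uncertain. In addition, 2 members with different first numbers had identical values in all 30 libraries, so the 215 members hold 214 distinct profiles. Both were called higher in roots than in shoots at 6 h, and one profile is thus counted 2 times there.

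The members with the largest and second largest difference at 2 h, 7.11 and 6.12, form one of these pairs. The first was at 21.06, 9.67 and 12.39 TPM in root control libraries 31, 32 and 33 and at 2062.09, 1526.50 and 2624.86 TPM in libraries 1, 2 and 3 of 2 h. At 6 h it was at 56.70, 222.32 and 76.59 TPM, and at 12 h at 40.92, 119.27 and 183.33 TPM. All later libraries were under those of 2 h, and the 24 h values were 242.00, 145.13 and 1178.75 TPM, with library 12 far above the others. Its neighbour was at 20.29, 0.70 and 30.38 TPM in control, at 556.93, 473.94 and 1426.52 TPM at 2 h, and at 38.52, 71.38 and 48.18 TPM at 6 h. At 12 h the neighbour was at 44.93, 15.84 and 26.87 TPM, which overlaps the controls, and at 24 h at 528.02, 119.33 and 306.49 TPM. In shoots both genes were low, at up to 5.90 and 6.00 TPM. Both were called higher in roots than in shoots at 6 h, by 5.65 (SE 0.76, limma adjusted p = 2.06e-06) and 4.77 (SE 0.84, limma adjusted p = 7.43e-05). The pair was picked for its root rise at 2 h, which favours this direction.

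Both members that limma called in roots at all 4 times had their maximum at 12 h. One was at 1.25, 2.60 and 0.72 TPM in root controls, at 5.53, 12.62 and 6.56 TPM at 2 h, and at 10.55, 15.99 and 5.49 TPM at 6 h. It reached 45.14, 30.95 and 42.12 TPM at 12 h and 41.65, 28.32 and 34.84 TPM at 24 h, with no overlap with control at any time. The other was at 1.98, 6.70 and 2.40 TPM in root controls, at 21.96, 31.84 and 15.36 TPM at 6 h and at 67.19, 57.83 and 61.03 TPM at 12 h. This second gene was also well expressed in shoots, from 17.09 to 87.10 TPM over the 15 libraries, and its root and shoot levels at 6 h differed by -0.19 (SE 0.44), which did not pass the test (limma adjusted p = 0.796).

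Shoot levels at 12 h against 6 h, which the rule did not use either, followed the other genes. The median difference was 0.17 over members and 0.16 over all 25420 tested genes, and 1 member was called higher and 4 lower by limma, where 1.73% and 1.89% of all tested genes were. The member that was higher in shoots at 12 h was at 31.84, 73.44 and 57.01 TPM there and at 2.30, 3.33 and 6.39 TPM at 6 h, a difference of 3.46 (SE 0.47, limma adjusted p = 8.58e-05). Its root levels were also highest at 12 h, at 76.27, 85.34 and 109.42 TPM. Of the 4 that were lower, Glyur000363s00015358 differed most: it was at 98.06, 58.57 and 70.39 TPM in shoots at 6 h and at 5.6, 8.13 and 13.67 TPM at 12 h, a fall by 2.97 on the log2(TPM + 1) scale (SE 0.47, limma adjusted p = 5.87e-04). In roots the same gene was at 11.76, 13.80 and 5.92 TPM in control, at 399.98, 289.37 and 326.78 TPM at 2 h and at 13.50, 38.37 and 43.33 TPM at 12 h. The next, Glyur000960s00023956, was at 202.76, 291.70 and 170.22 TPM in shoots at 6 h and at 39.81, 83.74 and 72.46 TPM at 12 h (a fall by 1.78, SE 0.33, limma adjusted p = 0.00281), and its root levels never exceeded 18.20 TPM. These genes were picked after their values were seen. The count of 5 was 3 without shoot library 5 of 6 h, where 1.65% of all tested genes were called in either direction, against 3.63% in the full fit.

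In shoots at 24 h the members' median difference from control was 0.33, beside -0.14 over all tested genes, within the limits of the rule. The mean log2(TPM + 1) over members was 3.11, 2.52 and 3.39 in shoot libraries 10, 11 and 12 of 24 h, against 2.70, 2.73 and 2.74 in the controls. The groups overlap, since library 11 was under all 3 controls. Library 11 was the lowest of the 3 libraries of 24 h in 62.8% of members and in 58.2% of all tested genes. The median of the root-biased genes was 1.95, 0.46 and 1.92 in the same 3 libraries and 0.85, 1.01 and 1.76 in the controls. The mean log2(TPM + 1) over all tested genes was also low in shoot library 11, at 2.93. Library 10 had 3.37 and library 12 had 3.40, while the shoot controls ran from 3.26 to 3.47. The part of root-biased RNA in the members' shoot levels was not tested.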

How the data were processed

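For every library there is a deposited file of TPM over the same 34445 genes. Per the submitters' processing notes the tools were edgeR, DESeq2, RSEM, StringTie, HISAT2 and fastp, with no version or role for any; the maker of the TPM, the build and the annotation are each not given in the sources used here. Each library's listed TPM sum to 928931 to 972586, so values are shares of the RNA pool, and low values carry unknown counting error.

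From these, log2(TPM + 1) was computed and fitted in R 4.3.3 by limma 3.58.1 (moderated with a mean trend, Benjamini-Hochberg adjustment over all genes, threshold 0.05). A gene entered a fit if 3 or more of its libraries reached 1 TPM, which all 215 members did. Roots against control used the 15 root libraries; the other comparisons used all 30. The fit was tested on simulated data. Library numbers pair a root with a shoot library: at 6 h the deviations of same-numbered libraries from their group means correlated at 0.225, 0.310 and 0.203 across genes. For other-numbered libraries of 6 h the correlations ran from -0.201 to 0.016. The main fits took no account of this pairing. The members and lists were chosen with earlier results of these data known. Genes were named by 2 rules, the largest smallest difference without overlap with control and the highest treated root level, and others were picked after their values were seen. Gene lists by function could not be applied without gene names. Alternatives were other filters, scalings and pseudocounts, no trend, fewer libraries, the library number as a block, and each library left out in turn. Figures were drawn with matplotlib 3.10.9.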

Additional observations from a re-analysis of the deposited data

How the results depend on the processing

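Of the counts of members called, those of roots against shoots at 6 h stayed within 1.5 times under every alternative run, with 81 to 99 members higher and 13 to 16 lower when single libraries of 6 h were left out. In those leave-out fits, 31.6% to 37.0% of all tested genes were called in either direction, against 39.2% in the full fit. With the library number as a replicate block on the 6 libraries of 6 h, 199 members were tested. Of these, 105 were higher and 21 lower in roots, where 48.7% of all tested genes were called in either direction. This paired fit changed neither count by more than 1.5 times. For Glyur011173s00047934 the limma adjusted p of roots against shoots was 0.00249 in the paired fit and 0.00171 in these 6 libraries without the block. For Glyur000519s00019093 the limma adjusted p was 0.00101 and 3.50e-04 in the same order. At 12 h against 6 h in shoots, 3 to 6 members were called when single libraries were left out. Of all tested genes, 1.55% to 3.37% were called there, against 3.63% in the full fit. Against control, leaving out single libraries gave root counts of 95 to 118 (2 h), 0 to 7 (6 h), 49 to 86 (12 h) and 104 to 140 (24 h); the 24 h count was 85 with only the 6 libraries compared. The 2 members called at 6 h by limma became 0 without a filter, without trend or with only the 6 libraries compared. The count was 1 with median-ratio scaling, 4 with the filter of 5 TPM and 5 with the pseudocount 0.1. In the fit as reported, 118 members had an unadjusted limma p under 0.05 in either direction, and the cause of this was not tested. The rule was met by 142 genes with a level limit of 20 TPM, by 188 to 321 when single libraries were left out, by 249 with the pseudocount 0.1 (149 of the 215 members among them) and by 207 after median-ratio scaling (186 of them). That scaling moved the median of all tested genes by more than 0.1 in 3 comparisons, from 0.157 to 0.017 for shoots at 12 h against 6 h, from -0.124 to -0.010 for roots at 2 h against control, and from 0.195 to about 0 for roots against shoots at 6 h. TPM keep no depth, which limits what can be said of members under a few TPM.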
